A study of Rattus norvegicus with 10 samples.

Results

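mRNA levels of 3 immediate early genes, Dusp1, Dusp5 and Apold1, were examined in the left ventricular anterior wall of rats given dexmedetomidine (DEX), an alpha2 adrenergic receptor agonist used for sedation. The genes are read by 3 of the 20174 gene probes of a 1-colour Toray 3D-Gene oligonucleotide array, ENSRNOG00000003977 for Dusp1, ENSRNOG00000014061 for Dusp5 and ENSRNOG00000007830 for Apold1, with 1 spot each. They were chosen by the difference between the groups on these same arrays, since all 3 are among the 165 mRNAs that the study listed as different (151 of them lower with DEX), and this is the reason why that difference is described here without a test. Signals in single rats, their movement together within a group and their brightness among other probes were not part of that choice.

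All 10 animals were male Wistar rats of 250 to 350 g, with 1 array for each. In the DEX group (n = 5) an intravenous loading dose of 6 mcg/kg/h ran for 10 min, a maintenance dose of 0.7 mcg/kg/h for 20 min, and a saline washout for 5 min. The control group (n = 5) received saline at a matching rate. The hearts were taken before any ischemia, and the RNA came from a piece of wall that holds cardiomyocytes, endothelial cells, fibroblasts and blood. Less RNA per cell and fewer cells of a type therefore cannot be told apart in any of the values.

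Immediate early genes are transcribed within minutes of a stimulus, without the need for newly made protein, and most of their mRNAs are short-lived. Dusp1, also called MAP kinase phosphatase 1, encodes a nuclear phosphatase that switches off the MAP kinases p38, JNK and ERK. Dusp5 encodes a nuclear phosphatase that acts on ERK, and ERK activity itself raises its transcription, so that both phosphatases are parts of negative feedback loops. Apold1, known as Verge, encodes a membrane protein of the vessel wall that was described as an early response gene of endothelial cells. In many tissues genes of this class respond to cAMP through CREB, which binds the cAMP response element (CRE), and to growth signals through the serum response factor, which binds the CArG box.

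The 250 bases before the transcription start of each gene are shown because such elements often lie in these stretches. They are RefSeq sequences of assembly GRCr8, all on the plus strand, at chr10:17184603-17184852 for Dusp1, at chr1:262543524-262543773 for Dusp5 and at chr4:169552349-169552598 for Apold1. RefSeq lists several transcripts of Apold1, and the window precedes the start given in its promoter table. Capitals mark matches, on either strand, to elements searched by a script. These were the whole CRE, spelled TGACGTCA, and the shorter core of it, spelled TGACG. The CArG box was searched as well, as were the E-box with the letters CACGTG, the common form TATAAA of the TATA box, and the CCAAT box.
Dusp1: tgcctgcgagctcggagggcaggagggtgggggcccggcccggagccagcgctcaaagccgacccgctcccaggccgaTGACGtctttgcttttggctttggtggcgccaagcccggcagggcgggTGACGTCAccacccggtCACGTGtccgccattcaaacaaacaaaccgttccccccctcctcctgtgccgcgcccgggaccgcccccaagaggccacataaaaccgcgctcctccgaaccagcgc
Dusp5: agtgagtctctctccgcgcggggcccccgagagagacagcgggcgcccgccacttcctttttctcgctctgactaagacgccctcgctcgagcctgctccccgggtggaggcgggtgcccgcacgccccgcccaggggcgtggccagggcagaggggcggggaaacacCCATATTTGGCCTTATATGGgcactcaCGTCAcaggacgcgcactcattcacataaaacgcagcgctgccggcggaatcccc
Apold1: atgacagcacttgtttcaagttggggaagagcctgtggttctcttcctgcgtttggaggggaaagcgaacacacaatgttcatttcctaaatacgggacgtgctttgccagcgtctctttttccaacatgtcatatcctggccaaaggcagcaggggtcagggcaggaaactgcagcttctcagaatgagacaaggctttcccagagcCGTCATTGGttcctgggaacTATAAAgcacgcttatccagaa

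A CRE core stood in each of the 3 windows. Dusp1 held the whole palindrome TGACGTCA 124 bases before the start, a further core 172 bases before it and an E-box 107 bases before it. Dusp5 held 1 core, 55 bases before the start, and just upstream of it a pair of CArG boxes side by side, CCATATTTGG and CCTTATATGG, which begin 82 and 72 bases before the start. In Apold1 the core began 42 bases before the start and shared 1 base with a CCAAT match on the minus strand, and the TATA box began 22 bases before the start. The AP-1 site, spelled TGACTCA on one strand, was found in none of the 3.

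The elements differ in how common they are. Of 33469 RefSeq promoter windows of 250 bases, 18.2% held the CRE core, 1.59% the palindrome, 1.5% a CArG box, 4.05% an AP-1 site, 5.59% the E-box, 12.9% the TATA box and 34.0% the CCAAT box. Palindromes are counted among cores as well, since each contains the core on both strands. Of the 38 other immediate early genes on a prepared list that have a window, 20 held the core, 7 the palindrome and 4 a CArG box, and of 8 other MAP kinase phosphatases these numbers were 3, 1 and 0. G and C made up 68.8% of the Dusp1 window, 67.2% of that of Dusp5 and 49.6% of that of Apold1, against a median of 51.2% over all windows. A match describes letters in a window, no binding was measured, and no link between these elements and the signals of the rats was tested.

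Signals are given on the scale of the authors, on which the mean of the blank spots is subtracted and the median of the detected probes of each array is set to 25. The deposited table gives the same signals as whole numbers. All 3 probes were detected on all 10 arrays.

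Dusp1 was the brightest of the 3 spots. Its normalized signals in control rats 1 to 5 were 896, 720, 638, 554 and 409, and in DEX rats 1 to 5 they were 349, 303, 288, 372 and 292. Every DEX rat lay below every control rat. The control rats spanned 2.19-fold and the DEX rats 1.29-fold, and the means were 644 ± 182 (SD, n = 5) and 321 ± 37.3 (SD, n = 5). The mean log2 difference, DEX minus control, was -0.96.

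Apold1 was of intermediate signal. The values were 232, 171, 158, 135 and 108 in control rats 1 to 5 and 133, 99.8, 82.2, 114 and 90.1 in DEX rats 1 to 5. The groups overlapped, because DEX rats 1 and 4 lay above control rat 5. The means were 161 ± 46.4 (SD, n = 5) and 104 ± 20.1 (SD, n = 5), with a log2 difference of -0.61.

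Dusp5 was the dimmest. Control rats 1 to 5 had signals of 68.8, 64.9, 45.5, 43.4 and 62.7, and DEX rats 1 to 5 had 35.5, 41.0, 39.4, 29.3 and 43.2. The groups did not overlap, but their edges nearly touched, at 43.4 in control rat 4 and 43.2 in DEX rat 5, which are both 43 in the deposited table. Within the control group 3 rats lay above 60 and the other 2 below 50. The means were 57.1 ± 11.7 (SD, n = 5) and 37.7 ± 5.46 (SD, n = 5), with a log2 difference of -0.59.

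**Figure D1:**
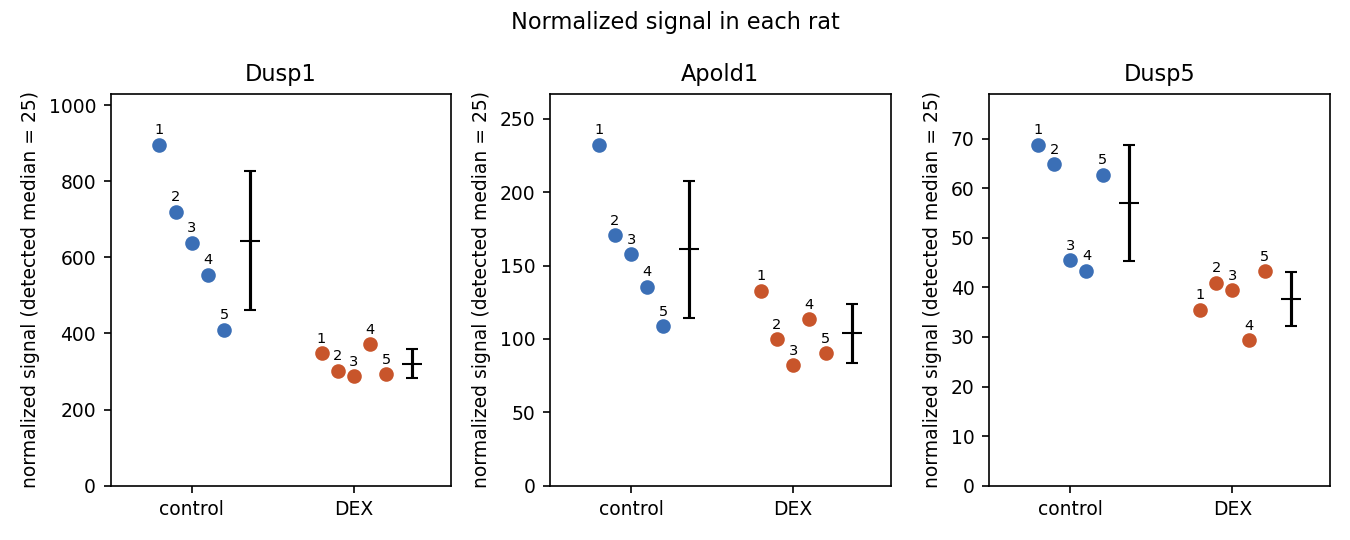
Normalized signal (detected median of each array set to 25, linear axis from 0) of Dusp1, Apold1 and Dusp5 in each rat, numbered as in the text, with the mean and SD of each group in black (n = 5). The groups are apart for Dusp1, overlap for Apold1 and all but touch for Dusp5, and control rat 5 is the lowest control for Dusp1 (409) and Apold1 (108) but not for Dusp5 (62.7).

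The median probe was also lower in the DEX group, with a log2 difference of -0.17 over the 14519 probes detected in at least 3 of 5 rats of 1 group. That median rests on the scaling. It was -0.018 with quantile normalization and -0.018 when arrays were scaled to the probes detected on all of them. Both of these draw it toward 0 by design. A fall at least as large as that of Dusp1 was found in 0.262% of these probes, one as large as that of Apold1 in 2.85% and one as large as that of Dusp5 in 3.34%. At the methods' thresholds (unadjusted p under 0.05, here from limma, and 1.5-fold) a lower signal with DEX was called for 2.70% of probes, and for 1.44% of probes every DEX rat lay below every control rat. The 3 genes met the first criterion and 2 of the 3 the second, and as the same contrast chose them nothing is read from this. No probe of the 14519 passed an adjusted p of 0.05 in limma (Benjamini-Hochberg, lowest 0.148), while 2100 passed an unadjusted p of 0.05. The thresholds of the methods called 392 probes lower and 64 higher with median scaling, and 98 lower and 203 higher with quantile normalization.

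The differences changed when the blank level was used as a covariate or the recorded background was corrected for. The mean intensity of the blank spots, which carry no probe, was 57.1 to 60.5 on control arrays and 59.9 to 62.6 on DEX arrays, a gap that passed a permutation test (two-sided exact permutation, p = 0.0159). With the blank mean as a covariate the log2 differences were -0.43 for Dusp1, -0.43 for Dusp5 and -0.0098 for Apold1. The median of all probes was then 0.075. Because the blank mean differed between the groups, a part of DEX and a part of the blank level cannot be told apart. The scanner also recorded a background for each spot, which was 90.2 to 111% of the Dusp1 spot itself. It was 99.6 to 110% of the Apold1 spot and 91.2 to 103% of the Dusp5 spot. On the array of control rat 1 it was 1055 at Dusp1 and 132 at Dusp5, beside a blank mean of 57.1. With a normexp correction for this background, followed by quantile normalization, the difference of Dusp1 turned to 0.30. The recorded background followed the signal of each spot and not the blank level. A correction for it takes away most of the signal, so it cannot check the differences. How it was measured is not given in the sources used here. With the 6 other scalings and scales tried, which used the blank mean as background, all 3 genes stayed lower in the DEX group. The differences ran from -1.01 to -0.81 for Dusp1, from -0.63 to -0.45 for Apold1 and from -0.60 to -0.43 for Dusp5. The study also measured Dusp1 mRNA by quantitative PCR and reported a lower level with DEX. It describes no further rats for this, so the RNA may be that of the same animals.

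**Figure D2:**
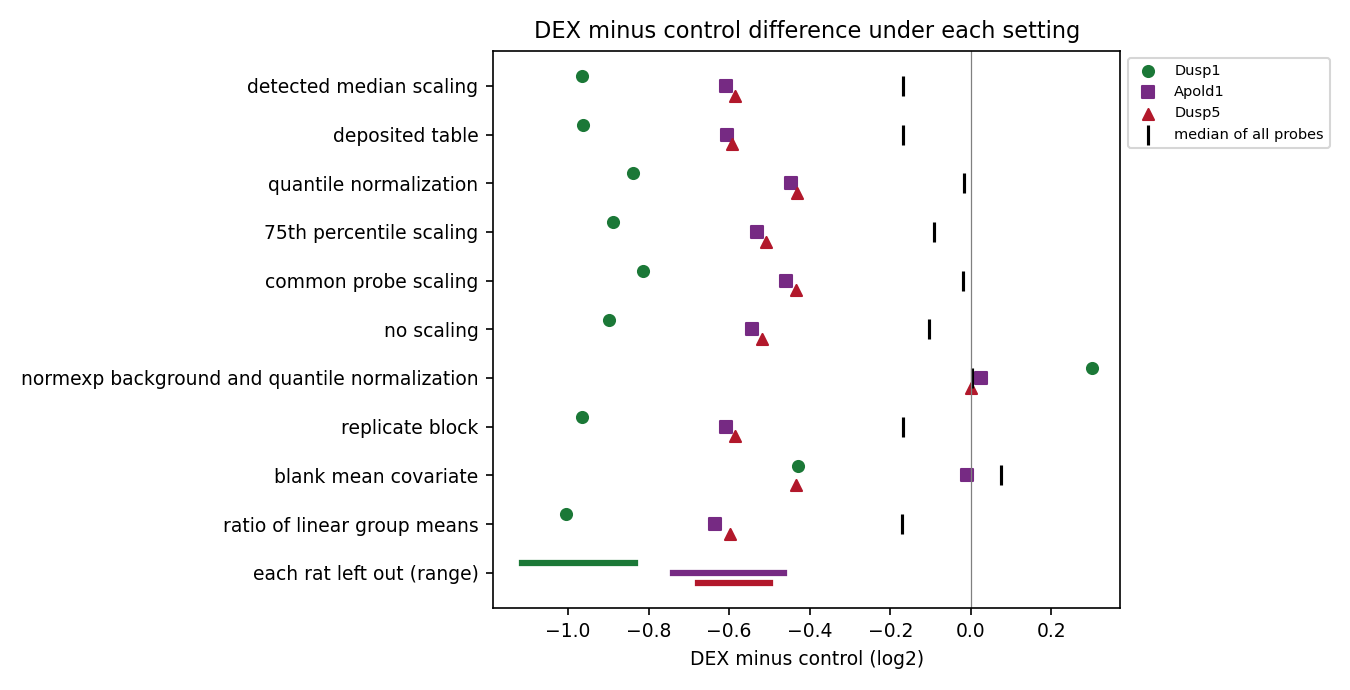
Log2 difference, DEX minus control, of Dusp1 (circles), Apold1 (squares) and Dusp5 (triangles) under each way of processing, with the median of all probes as a vertical tick and, in the last line, the range when each rat is left out in turn. All 3 genes lie left of the median of all probes in every line that has a tick except that of the normexp background, where Dusp1 is at 0.30 and Apold1 at 0.026, and Apold1 is at -0.0098 with the blank mean as a covariate.

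Brightness of a spot depends on its probe as well as on the mRNA, so a rank among probes describes the signal and not the abundance. Among the detected probes of its own array, Dusp1 stood at a percent rank of 90.8 to 94.6 in the control group and 88.1 to 90.1 in the DEX group. Apold1 stood at 75.8 to 83.9 and 71.9 to 77.8, and Dusp5 at 60.4 to 66.9 and 53.1 to 60.6. The order Dusp1, Apold1, Dusp5 held in all 10 rats without overlap between genes. Dusp1 was 16.4 to 35.9 times the detected median in the control group, Apold1 4.34 to 9.29 times and Dusp5 1.74 to 2.75 times, so that Dusp5 was, of the 3, read nearest to the blank level.

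Dusp1 and Apold1 varied in parallel from rat to rat. They ranked the 5 control rats in one and the same order, from control rat 1 at the top to control rat 5 at the bottom. In the DEX group rats 1 and 4 were the highest and rats 2, 5 and 3 followed in this order for both genes, with rats 1 and 4 changing places. Within a rat, the log2 signal of Dusp1 exceeded that of Apold1 by 2.0 ± 0.07 (SD, range 1.92 to 2.08, n = 5) among control rats, although each gene by itself varied with an SD of 0.42 and 0.41. Among DEX rats the same distance was 1.64 ± 0.16 (SD, range 1.39 to 1.81, n = 5). The size of this distance depends on the probes.

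Dusp5 followed another order. Control rat 5, the lowest for Dusp1 and Apold1, had a Dusp5 signal of 62.7, close to the 68.8 and 64.9 of control rats 1 and 2. In the DEX group, rats 1 and 4, the highest for Dusp1 and Apold1, had the lowest Dusp5 signals, 35.5 and 29.3. The log2 distance from Dusp1 to Dusp5 within a rat varied accordingly, from 2.71 to 3.81 in the control group and from 2.76 to 3.66 in the DEX group.

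These patterns were tested on deviations of log2 signals from the group means, which removes the difference between the groups, with an exact permutation of rats within groups (14400 orders) and Benjamini-Hochberg adjustment over the 12717 other probes detected in all rats. For Dusp1 with Apold1, r was 0.94 over 10 rats (two-sided exact permutation test, p = 0.000903) and rho was 0.95 (exact p = 0.000486). The adjusted p of r was 0.0749 over probes correlated with Dusp1 and 0.0228 over probes correlated with Apold1, so that it passed 0.05 in one family and not in the other. Without control rats 1 and 5, the rats farthest from the median of Dusp1, r was 0.86 (two-sided exact permutation test, p = 0.0153). For Dusp1 with Dusp5, r was 0.03 (exact permutation p = 0.954, adjusted 0.970) and rho was 0.19 (exact p = 0.650). For Dusp5 with Apold1, r was 0.05 (exact permutation p = 0.917, adjusted 1.0) and rho was 0.12 (exact p = 0.785). Without the 2 farthest rats, these correlations were -0.10 and 0.01. Whether the 3 correlations differ from each other was not tested.

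**Figure D3:**
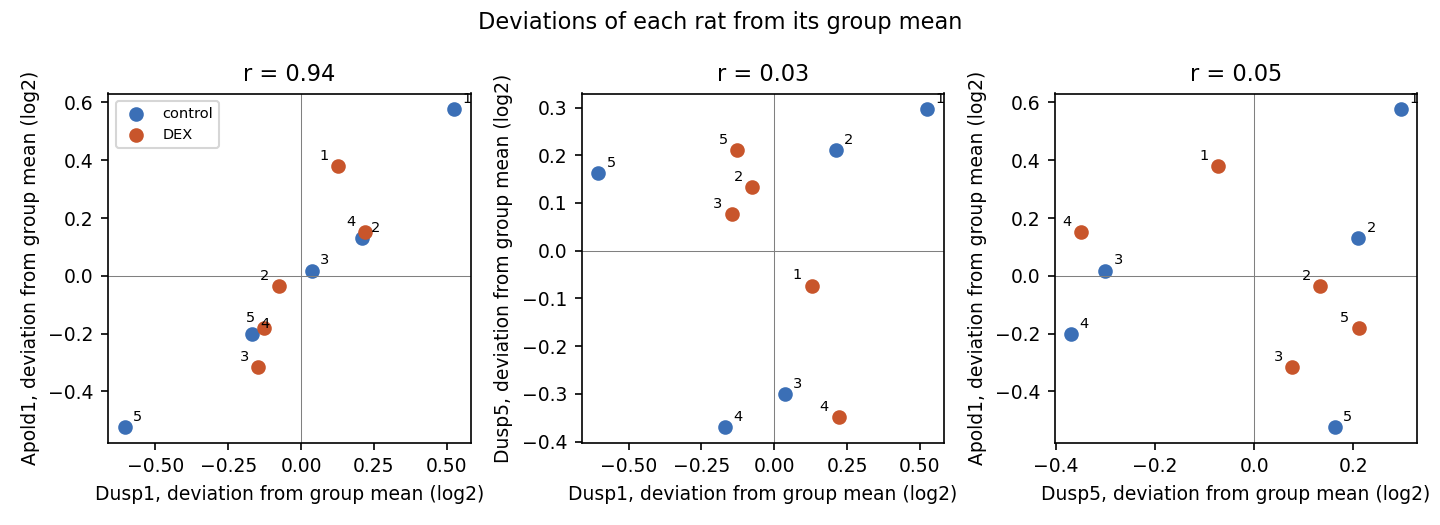
Deviation of each rat (control blue, DEX orange, numbered) from the mean of its group in log2 signal, for each pair of genes, with Pearson r over 10 rats above each panel. Dusp1 and Apold1 lie along a line (r = 0.94), and neither follows Dusp5 (r = 0.03 and 0.05).

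High correlations were common on these arrays. Over the 12717 probes the median r was 0.53 with Dusp1, 0.62 with Apold1 and 0.05 with Dusp5. Positive correlations with an adjusted p under 0.05 (exact permutation, Benjamini-Hochberg) were found for 19.0% of probes with Apold1 (2422 probes) and for 0% with Dusp1 and 0% with Dusp5 (0 probes each, with 3982 and 266 at an unadjusted p under 0.05). The count for Apold1 was 0 with quantile normalization and without control rat 1, control rat 5 or DEX rat 1, and that for Dusp1 was 1239 without DEX rat 4. Apold1 was near the top for Dusp1, since 48 probes (0.377%) had an r with Dusp1 at least as high, and Dusp1 was less far up for Apold1 (1.16%). Dusp5 lay in the low part of both distributions, with 92.1% of probes at least as high with Dusp1 and 93.6% with Apold1.

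**Figure D4:**
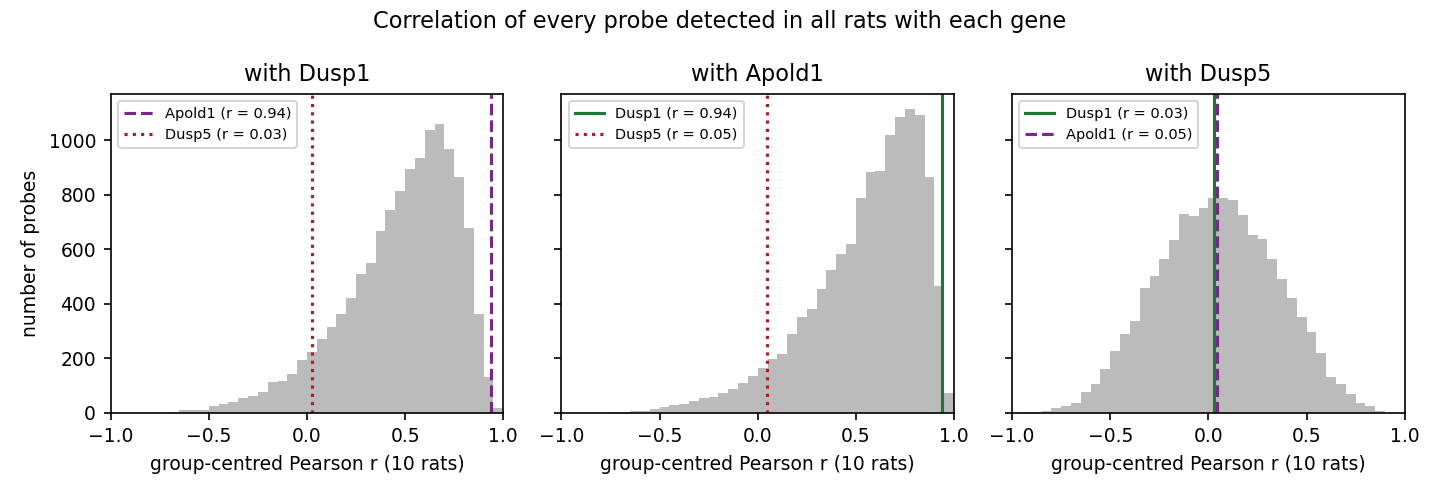
Number of probes by group-centred Pearson r (bins of 0.05, 10 rats) with Dusp1, Apold1 and Dusp5, over 12717 probes detected in all rats, with vertical lines at the other 2 genes. The bulk of probes lies to the right of 0 for Dusp1 (median 0.53) and Apold1 (median 0.62) and around 0 for Dusp5 (median 0.05), and the lines of Dusp1 and Apold1 stand at the upper edge of each other's histogram.

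Dusp1 and Apold1 also followed the signal level of the whole array, as did many probes (median r 0.63, with 17.6% of probes at least as high as Dusp1 and 0.676% as Apold1). The median log2 signal of the probes detected on all arrays followed Apold1 with r of 0.95 (exact permutation p = 0.000208, adjusted 0.0237) and rho of 0.99 (exact p = 0.000278), and Dusp1 with r of 0.82 (exact permutation p = 0.00486, adjusted 0.0373) and rho of 0.94 (exact p = 0.000764). With Dusp5 the r was 0.13 (exact permutation p = 0.778, adjusted 0.817) and the rho 0.15 (exact p = 0.717). Without control rat 1 and DEX rat 1, the farthest from the median, r was 0.94 for Apold1, 0.88 for Dusp1 and -0.29 for Dusp5. The blank mean ran the other way, with r of -0.82 for Apold1 (exact permutation p = 0.0103, adjusted 0.115), -0.79 for Dusp1 (exact permutation p = 0.0165, adjusted 0.127) and -0.27 for Dusp5 (exact permutation p = 0.498, adjusted 0.652). Over all probes the median r with the blank mean was -0.49, with 8.01% of probes at or below Apold1 and 11.0% at or below Dusp1. The rhos with the blank mean were -0.72 (exact p = 0.0380), -0.70 (exact p = 0.0585) and -0.20 (exact p = 0.630). Without control rats 1 and 5, the farthest in blank mean, r was -0.61 for Apold1 and -0.54 for Dusp1 (exact permutation p = 0.132 and 0.228). The order of blank means of the 5 control arrays was the exact inverse of the order of their Dusp1 and Apold1 signals. For the blank mean, 0% of 12718 probes had a negative correlation past an adjusted p of 0.05 (exact permutation, lowest adjusted p 0.101), and 3392 passed an unadjusted p of 0.05.

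**Figure D5:**
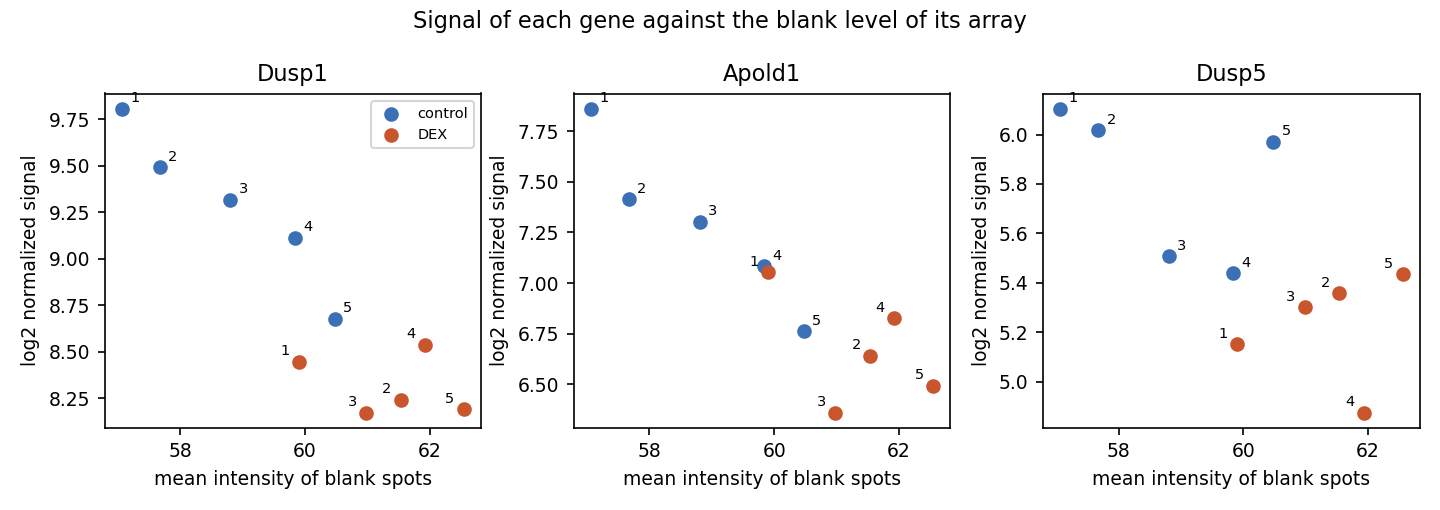
Log2 normalized signal of Dusp1, Apold1 and Dusp5 against the mean intensity of the blank spots of the same array (control blue, DEX orange, rats numbered). Signals of Dusp1 and Apold1 descend as the blank level rises from 57.1 to 60.5 in the control group, and those of Dusp5 do so less.

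With quantile normalization, which brought the median r over all probes to 0.01 with Dusp1 and with Apold1, the r of Dusp1 with Apold1 was 0.84 (two-sided exact permutation test, p = 0.0119, adjusted 0.991). Only 0.346% of probes then had an r with Dusp1 at least as high, a share close to the 0.377% before. After quantile normalization, the r with the median signal of the array before it was 0.89 for Apold1 and 0.58 for Dusp1. With the blank mean these r were -0.78 and -0.62. The median over all probes was 0.01 for the first measure and -0.0018 for the blank mean. These r are given without a test. With the blank mean as a covariate the r of Dusp1 with Apold1 was 0.82 (exact permutation p = 0.00896, adjusted 0.431). With the normexp background, a correction that takes away most of the spot signal, r was -0.081. This was the only way of processing tried in which the correlation was not positive. Dusp5 became negatively correlated with both under quantile normalization, with r of -0.27 for Dusp1 and -0.43 for Apold1 (exact permutation p = 0.492 and 0.239), values that the spread over 10 rats does not set apart from 0. With the normexp background these r were 0.21 and 0.73 (exact permutation p = 0.499 and 0.0335, adjusted 1.0 for both).

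The probes most like each gene were mostly ones without a symbol. For Dusp1 the 5 closest had r from 0.96 to 0.98 (adjusted p 0.0707 to 0.0750, exact permutation), for Apold1 from 0.98 to 0.99 (adjusted p 0.0145 to 0.0171, exact permutation, where the smallest unadjusted p that the permutations can give is 6.94e-05). None of these 10 has a symbol here. For Dusp5 the closest was Tppp, which encodes a tubulin polymerization promoting protein, with an r of 0.89 (exact permutation p = 0.00694, adjusted 1.0). Mean Tppp signals were 8.02 ± 2.42 (SD) among the 5 control rats and 5.04 ± 0.78 (SD) among the 5 DEX rats. The other 4 closest to Dusp5 had r of 0.85 to 0.86 and no symbol. Of the 5 closest probes under median scaling, 1 stayed among the 5 closest to Dusp1 and 1 among those to Apold1 under quantile normalization, and none did for Dusp5, although all 5 of Dusp1 and of Dusp5 and 4 of Apold1 stayed among the closest 100. By rho in place of r, 1 stayed among the 5 closest to Dusp1, 1 to Dusp5 and 0 to Apold1, and 2, 5 and 4 stayed among the closest 100.

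Among the other 164 mRNAs that the study listed, Apold1 was the one most like Dusp1, Tppp the one most like Dusp5 and Nbea, which encodes neurobeachin, a scaffold protein of membrane traffic, the one most like Apold1 (r = 0.95). The median r of the listed mRNAs was not above that of probes in general by more than rounding. It was 0.48 with Dusp1, 0.56 with Apold1 and 0.05 with Dusp5, beside 0.53, 0.62 and 0.05 over all probes.

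Symbols are known here only for listed mRNAs, so the pathway around the 3 genes is seen only where the study called a difference, and the direction of its members is not independent evidence. Of 11 MAP kinase phosphatases on a prepared list, Dusp1 and Dusp5 are the 2 with a symbol, and of 46 immediate early genes 3 are, which were Apold1, Bhlhe40 and Crem. Bhlhe40, a transcriptional repressor of the clock, had signals from 47.4 to 91.7 in the control group and from 34.0 to 41.3 in the DEX group, without overlap (log2 difference -0.71). Its r was 0.67 with Dusp5 (with 1.48% of probes at least as high), 0.54 with Dusp1 and 0.55 with Apold1, and none of these passed an adjusted p of 0.05 (exact permutation, adjusted p 1.0, 0.407 and 0.293). Crem encodes a CREB-related factor whose short form ICER is itself induced by cAMP. It had signals of 7.83 ± 1.92 (SD, n = 5) and 5.22 ± 1.40 (SD, n = 5), overlapping, with a log2 difference of -0.59. Crem followed Apold1 with an r of 0.89 (exact permutation, adjusted p = 0.0218, with 4.86% of probes at least as high) and Dusp1 with an r of 0.75 (adjusted p = 0.0927), and Dusp5 with an r of -0.10 (adjusted p = 1.0). With quantile normalization these became 0.69, 0.38 and -0.50.

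Of 26 genes around the ERK pathway, which Dusp5 and Dusp1 restrain, 8 have a symbol, and all 8 were listed as lower. Their log2 differences ran from -0.83 for Rapgef1, an exchange factor of the GTPase Rap1, to -0.55 for Taok2, a kinase upstream of p38 and JNK. Kitlg, the ligand of the receptor Kit, had r of 0.75 with Dusp1 and 0.79 with Apold1 (with 15.8% and 20.8% of probes at least as high). Adcyap1r1, the receptor of the peptide PACAP, had 0.64 and 0.72 (with 34.5% and 34.2% of probes at least as high). Neither passed an adjusted p of 0.05 (exact permutation, 0.140 and 0.0647 for Kitlg, 0.20 and 0.101 for Adcyap1r1). Grm5, a glutamate receptor with the lowest signal of the 8 (means of 3.53 and 2.06), ran against both, with r of -0.58 and -0.51 (adjusted p 0.225 and 0.252, exact permutation). The remaining 5 were Ros1, Lpar3, Fer, Taok2 and Rapgef1, with r from 0.09 to 0.56 with Dusp1, and none of them passed either.

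Cell type markers with a symbol were few, and all are mRNAs that the study listed. Of the cardiomyocyte markers, Ttn, which encodes the giant sarcomere protein titin, had signals from 19.2 to 31.3 in the control group and from 13.6 to 17.7 in the DEX group. Ttn followed Dusp1 with an r of 0.89 (exact permutation, adjusted p = 0.0801, with 1.53% of probes at least as high) and Apold1 with an r of 0.82 (adjusted p = 0.0525, with 15.3% of probes at least as high). Arhgef15, an exchange factor of vascular endothelium and the only 1 of 6 endothelial markers with a symbol, ran from 7.21 to 11.5 and from 3.41 to 6.92, with a log2 difference of -0.71 and r of 0.71 with Apold1 (adjusted p = 0.0801, exact permutation, with 35.6% of probes at least as high) and 0.53 with Dusp1 (adjusted p = 0.207, 50.3%). Slc4a1, the anion exchanger of red cells and 1 of 4 blood markers, ran from 12.1 to 26.6 and from 9.95 to 18.4, with an r of 0.77 with both Dusp1 and Apold1 (adjusted p = 0.0919 and 0.0691, exact permutation, with 13.4% and 24.6% of probes at least as high) and -0.45 with Dusp5 (adjusted p = 1.0). Fap of fibroblasts was lower in mean (log2 difference -0.60), with r of 0.14 with Dusp1 and 0.32 with Apold1, and Ccl3 of myeloid cells higher (0.60), with r of 0.09 and 0.06. The genes named from these lists were detected in all rats, and the part of cell type shares in the movement of Dusp1 and Apold1 was not tested.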

How the data were processed

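mRNA of 10 rat left ventricles was measured on 3D-Gene Rat Oligo chips with Cy5-labelled amplified RNA. The authors deposited the scanner intensity of every spot at 635 nm on a linear scale, without scaling, and a table of normalized signal values as rounded whole numbers. A median of 25 for detected signals is given by the methods. The remaining steps were rebuilt from both kinds of files. The mean of 1344 blank spots, without the 68 highest and 68 lowest, was subtracted, spots over that mean plus 2 SD without a failure mark counted as detected, and the detected median was set to 25, which gave 142667 of 142668 deposited values and all 201740 detection calls. Detected probes numbered 13528 to 15337 per array, and the number of arrays limits the precision. Rats are the replicates, and groups are those of the titles.

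Files pair no probe with a symbol. The 165 listed mRNAs were matched to 1 probe each by the listed fold change and p-value, within rounding, and symbols come from that match. The matching reuses the study's own contrast and says nothing of it. Authors' fold changes and p-values served only for this.

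Log2 signals were used, and an undetected spot took the lowest detected value on its array. Background shares came from limma 3.58.1 in R 4.3.3 (lmFit, eBayes, no covariates) and correlations from scipy 1.17.1 and numpy 2.4.6 under Python 3.11.15, both tested on simulated data. Two-sided exact permutations kept rats within groups. Named genes are the 3 genes, the 5 probes with the highest r for each, and members of prepared lists that have a symbol. A member of the marker lists is not reported here. Naming of Nbea was chosen after its values were seen. Members, lists and tests were chosen with earlier results of these data known. No label says that same-numbered rats share a day or litter. Deviations of same-numbered rats correlated over probes by -0.10 to 0.07, a measure that cannot show a shift shared by whole arrays. The blank mean was lowest at number 1 and highest at number 5 in the control group (57.1 and 60.5) and in the DEX group (59.9 and 62.6). Whether the numbers pair the rats is therefore not known. Promoters are RefSeq sequences of GRCr8. Alternatives were the deposited table, other scalings, a normexp background with an offset of 50, the blank mean as covariate, each rat left out, the replicate number as a block, and other ranks, filters and measures of likeness.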

Additional observations from a re-analysis of the deposited data

How the results depend on the processing

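The difference between groups kept its direction for all 3 genes under every alternative except normexp background with quantile normalization, where it was 0.30 for Dusp1, 0.000600 for Dusp5 and 0.026 for Apold1 on the log2 scale. The background that this correction subtracts was close to the spot itself for all 3 genes, and how it was measured is not known here. This alternative therefore cannot check the direction. With the blank mean as a covariate the difference moved to -0.43 for Dusp1 and -0.0098 for Apold1, and the cause was not tested. With each rat left out it ran from -1.12 to -0.83 for Dusp1, from -0.68 to -0.50 for Dusp5 and from -0.74 to -0.46 for Apold1.

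The correlation of Dusp1 with Apold1 stayed positive under every alternative except normexp background (-0.081), and ran from 0.89 to 0.98 with each rat left out. Without DEX rat 4 (r = 0.94) it passed an adjusted p of 0.05 in both families (larger 0.0276, exact permutation). Correlations with Dusp5 had no stable sign. Dusp1 with Dusp5 was -0.27 with quantile normalization, -0.16 with the 75th percentile, -0.30 with common probes, -0.12 without scaling and -0.31 with the blank covariate but 0.21 with normexp background, and ran from -0.37 to 0.31 with each rat left out. Dusp5 with Apold1 was -0.43, -0.19, -0.41, -0.088 and -0.31 under the first 5 in the same order and 0.73 with normexp background (exact permutation p = 0.0335, adjusted 1.0), and ran from -0.35 to 0.24. Both were negative without control rat 1, 2 or 4. The replicate block left the differences at -0.96, -0.59 and -0.61 and gave r of 0.93 for Dusp1 with Apold1 (exact permutation p = 0.0833, smallest possible 0.00833), 0.30 for Dusp1 with Dusp5 and -0.049 for Dusp5 with Apold1. Whether the numbers pair the rats is not known, so these are given as values only.

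The median percent rank among all gene probes was 93.3 for Dusp1, 72.2 for Dusp5 and 83.8 for Apold1, and among probes detected on all arrays 56.0 for Dusp5 and 74.3 for Apold1. Among the detected probes of each array the median percent rank was 90.5 for Dusp1, 60.5 for Dusp5 and 77.2 for Apold1. With each rat left out, this last rank ran from 90.1 to 90.8, from 60.4 to 60.6 and from 76.6 to 77.8. The number of probes correlated with Apold1 past an adjusted p of 0.05 was 1259 by rho and 0 with quantile normalization (747 at an unadjusted p), and ran from 0 to 2048 with each rat left out, at 0 without control rat 1, control rat 5 or DEX rat 1. For Dusp1 it ran from 0 to 1239, the latter without DEX rat 4, and for Dusp5 it was 0 throughout. Probes lower past the thresholds of the methods, with p from limma in place of the study's t-test, numbered 392 with median scaling and 98 with quantile normalization. Those higher numbered 64 and 203.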
